A study of Homo sapiens with 18 samples.

Results

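The genes described here were 37 interferon-stimulated genes, effectors and regulatory factors of the interferon response including IFI6, which were chosen by symbol and matched to Ensembl identifiers among the 58302 genes of the deposited RNA-seq table. All 37 were in the table. RNA-seq was performed in U87MG, an established human glioblastoma cell line, in 4 libraries. The 2 control libraries came from biological replicates under normal growth conditions, and the labels name no vehicle for them. The 2 Erastin libraries came from biological replicates treated with Erastin (10 μM, 72 h), a small molecule that blocks the cystine transporter system Xc- and induces ferroptosis, an iron-dependent form of cell death. Neither the labels nor the methods name an interferon or a virus given to either group. The question addressed was whether the transcripts of these genes changed in ferroptotic glioblastoma cells.

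Interferon-stimulated genes encode the antiviral proteins that a cell makes after interferon binds its receptor. The kinases JAK1 and TYK2 on the receptor phosphorylate STAT proteins, and STAT2 joins IRF9 in the complex ISGF3. This complex binds the interferon-stimulated response element (ISRE) in the promoters of these genes, and IRF1 and IRF7 can bind similar elements. Many of the genes also have a low basal level without added interferon, which differs between cell types and tumor cell lines.

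The ISRE was searched in the promoters of the members, because it is the sequence that links these genes to interferon signaling. RefSeq promoters (GRCh38.p14, 250 bases before to 50 bases after the annotated start site) were found for 30 of the 37 genes. The promoter nearest the start of the representative transcript was used for the 7 genes with more than 1. MX2, IFITM2, IRF7, OASL, USP18, OAS2 and IFIT2 had no entry in the table used. The ISRE core was written as GAAANNGAAA and searched on both strands, where the other strand reads TTTCNNTTTC. Of the 30 promoters, 21 (70.0%) held at least 1 match, compared with 3.57% of all 35116 promoters of the same length. The windows below come from genes that fell, rose or did not pass the test in Erastin-treated cells. They are printed 5′ to 3′ on the strand of the gene, upstream of its start site, with ISRE matches in capitals.
OAS3 (chr12:112938319-112938473, plus strand): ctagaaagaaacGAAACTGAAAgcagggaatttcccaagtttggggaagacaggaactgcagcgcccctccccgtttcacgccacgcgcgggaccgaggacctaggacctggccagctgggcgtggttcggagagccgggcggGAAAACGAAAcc
IFI44L (chr1:78620272-78620396, plus strand): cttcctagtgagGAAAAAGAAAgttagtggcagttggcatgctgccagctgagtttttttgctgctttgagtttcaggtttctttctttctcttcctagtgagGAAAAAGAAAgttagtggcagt
IFI44 (chr1:78649759-78649792, plus strand): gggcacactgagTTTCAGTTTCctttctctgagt
IFIT1 (chr10:89392495-89392541, plus strand): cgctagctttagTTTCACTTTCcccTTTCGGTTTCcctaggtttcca
IFITM3 (chr11:320874-320924, minus strand): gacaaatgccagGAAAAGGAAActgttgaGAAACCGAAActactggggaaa
IFIH1 (chr2:162318685-162318855, minus strand): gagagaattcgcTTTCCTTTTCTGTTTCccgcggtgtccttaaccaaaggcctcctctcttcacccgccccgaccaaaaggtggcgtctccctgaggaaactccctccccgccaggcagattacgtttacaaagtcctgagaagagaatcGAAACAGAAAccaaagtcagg
IFIT3 (chr10:89327829-89327896, plus strand): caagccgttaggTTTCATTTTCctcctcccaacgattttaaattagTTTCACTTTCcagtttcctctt
ISG15 (chr1:1013372-1013411, plus strand): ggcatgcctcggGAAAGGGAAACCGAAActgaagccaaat
IFI6 (chr1:27672264-27672360, minus strand): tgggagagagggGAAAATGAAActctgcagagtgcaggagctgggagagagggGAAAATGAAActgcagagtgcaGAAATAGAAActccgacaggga
PARP9 (chr3:122564320-122564353, minus strand): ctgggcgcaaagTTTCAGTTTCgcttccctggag
In IFI44L, the matches at -164 and -73 lay in an identical stretch of 34 bases. The match in the PARP9 window was also the match at -6 in the promoter of DTX3L, since these neighboring genes are transcribed in opposite directions from start sites close together.

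**Figure D1:**
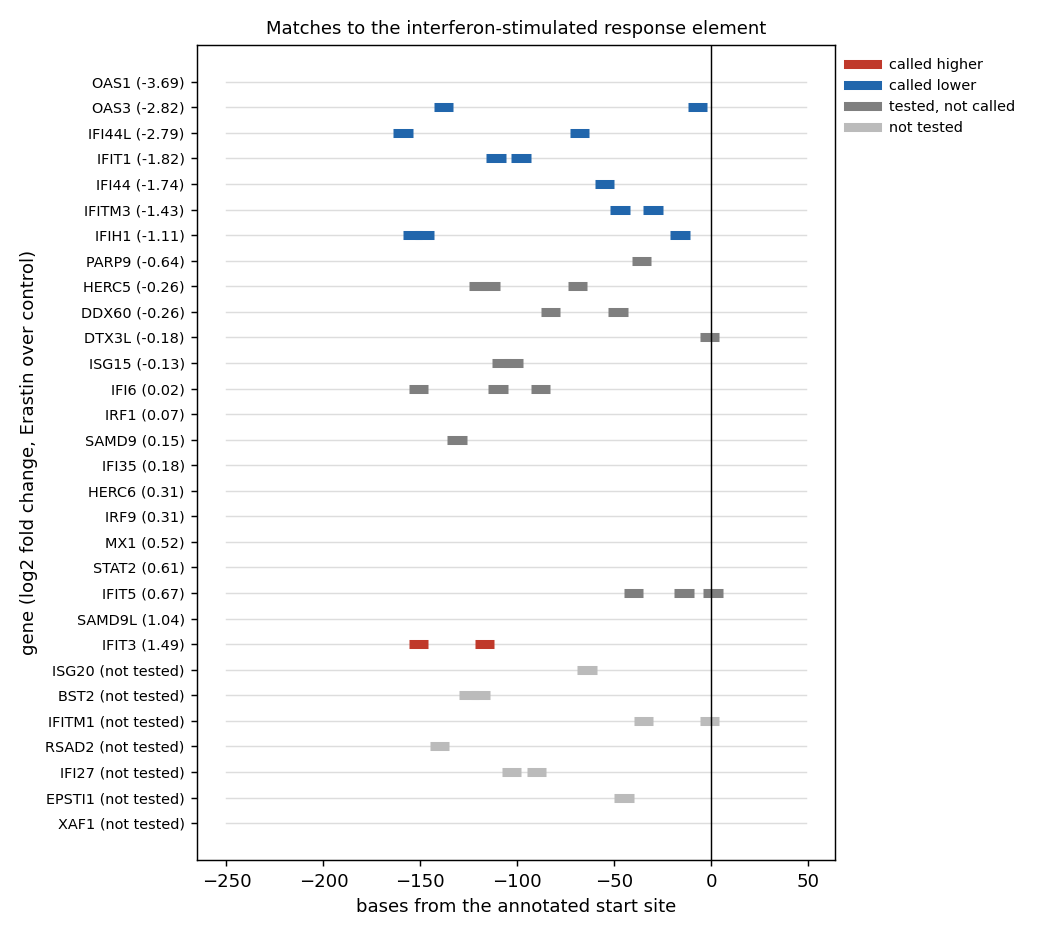
Positions of ISRE matches (colored blocks) in the 30 promoters, in bases from the annotated start site, with genes ordered by log2 fold change in Erastin-treated cells. Matches lay at or upstream of the start site of genes called lower, called higher and not called, with the farthest at -164 in IFI44L.

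The counts on genes totalled between 29412656 and 31513519 in the 4 libraries, and CPM below means counts scaled to a common library size after TMM normalization. Genes were called when the log2 fold change was 1 or more in size and the adjusted p was under 0.05 in edgeR's quasi-likelihood test of 16751 genes. A comparison of 2 libraries with 2 allows no two-sided exact permutation p under 0.333, and the p-values therefore depend on a variance shared across genes. VIM and CD44, markers of mesenchymal glioma lines, had between 31559 and 77887 counts in each library, and the 5 markers of that list summed to 9937 to 10330 CPM in control and 4226 to 4557 CPM in Erastin libraries. Most of that fall came from FN1, with means of 5187 and 496 CPM, while NES was also called lower (log2 fold change −3.62). VIM and CD44 fell by less than the fold threshold, with log2 fold changes of -0.60 and -0.36 (adjusted p = 1.27e-05 and 6.44e-04 from edgeR). S100A6 rose by 0.20 on the log2 scale (adjusted p = 0.0273 from edgeR). The 5 astrocyte markers summed to 3.31 to 3.46 CPM and 3.88 to 4.71 CPM. The astrocyte markers GFAP and AQP4 had at most 81 and 0 counts, and the labels give the line as a glioblastoma. Several defining markers of immune cells, which also express interferon-stimulated genes, were at or near 0. CD3E, CD3D, AIF1, CLEC4C and LILRA4 had 0 counts in all 4 libraries, and PTPRC had at most 1 count. The summed level of 6 macrophage markers, mostly CSF1R, was 9.12 to 9.29 CPM in control and 5.85 to 6.96 CPM in Erastin libraries. The 5 lymphocyte markers, mostly CD2, summed to 2.155 to 2.19 CPM and 0.234 to 0.445 CPM. The 4 markers of plasmacytoid dendritic cells, mostly TCF4, summed to 54.3 to 54.4 CPM and 27.7 to 28.6 CPM. The 4 endothelial markers summed to 4.64 to 6.175 CPM and 1.64 to 2.07 CPM, where PECAM1 fell (log2 fold change −2.34) and VWF, at 0.130 CPM on average in control and 0.793 CPM in Erastin libraries, rose (2.58, adjusted p = 0.0125 from edgeR). The 5 neuronal markers summed to 64.4 to 69.5 CPM and 25.7 to 26.9 CPM, with SNAP25 called lower (log2 fold change −3.31). The part of these levels in the results was not tested. In bulk RNA, fewer cells of a type and less RNA per cell cannot be told apart.

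The interferon-stimulated genes changed in both directions in Erastin-treated cells, with more called lower than higher. OAS1, OAS3, OASL, IFI44L, IFI44, IFIT1, USP18, IFITM3 and IFIH1 fell, whereas IFIT3 and SAMD9L rose. Of the 37 genes, 30 had enough counts to be tested. Of these, 9 (30.0%) were called lower, where 9.34% of all tested genes were, and 2 (6.67%) were called higher, where 6.24% of all tested genes were. Without the fold threshold, 10 were lower and 5 higher at an adjusted p under 0.05, or 33.3% and 16.7%, where 23.7% and 23.2% of all tested genes were. The median log2 fold change was −0.05, compared with −0.00259 over all tested genes, and 15 members were above and 15 below 0. Both Erastin libraries lay below both control libraries for 13 of the 30 (36.9% of all tested genes) and above them for 9 (36.7% of all tested genes). The summed level of the 37 genes was 490.2 and 502 CPM in the control libraries and 495 and 499 CPM in the Erastin libraries, so the groups overlapped in total. Genes with many counts weigh most in this sum, and rises and falls offset each other in it. STAT2 averaged 99.1 CPM in control and 151 CPM in Erastin libraries, whereas IFI44L averaged 36.2 and 5.22 CPM and IFI44 36.4 and 10.9 CPM.

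**Figure D2:**
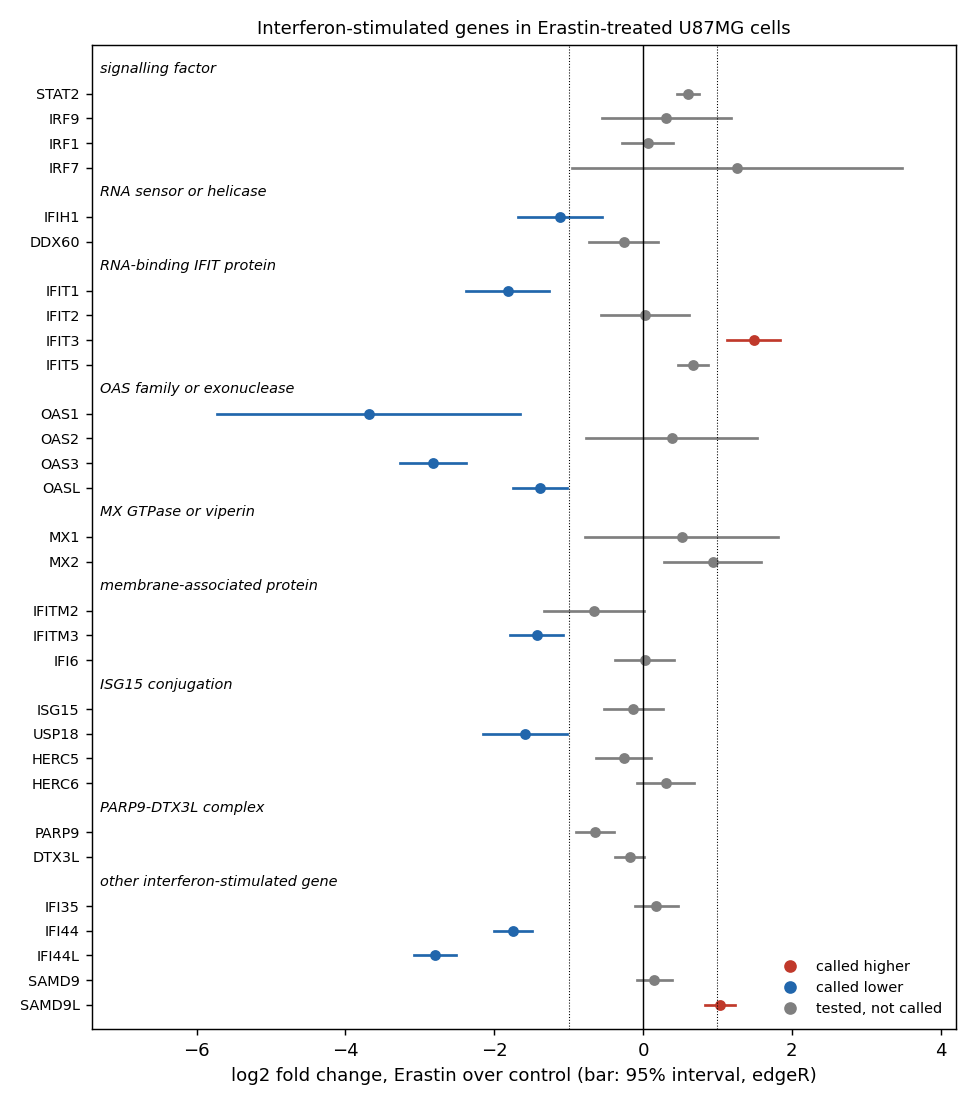
Log2 fold change (Erastin over control) of the 30 tested members by role, with 95% intervals from edgeR and dotted lines at a log2 fold change of 1 in size. The 9 genes called lower lie between −3.69 and −1.11, and the 2 called higher at 1.04 and 1.49.

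Of the components of ISGF3, STAT2 rose by less than the fold threshold, and IRF9 did not pass the test. STAT2, the subunit of the complex that activates transcription, had the highest level per length of the members, with a mean of 20.5 RPKM (CPM per kilobase of exon) over the 4 libraries. It had 95.8 and 102 CPM in the control libraries and 151 and 151 CPM in the Erastin libraries. Both Erastin libraries were higher, and STAT2 rose by a log2 fold change of 0.61 (SE 0.0691, adjusted p = 2.08e-05 from edgeR), below the fold threshold. IRF9, which gives the complex its DNA-binding part, was low. It had 1.24 and 1.09 CPM in the control libraries and 1.60 and 1.30 CPM in the Erastin libraries, with a log2 fold change of 0.31 (95% interval −0.55 to 1.18, adjusted p = 0.550 from edgeR). An overlapping gene covered 48.4% of the exon bases of IRF9, and reads on both genes were not counted.

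The other interferon regulatory factors of the list did not pass the test. IRF1, a factor also induced by interferon-gamma, had 12.7 and 10.52 CPM in the control libraries and 12.99 and 11.3 CPM in the Erastin libraries. The groups overlapped, and the log2 fold change was 0.07 (95% interval −0.28 to 0.41, adjusted p = 0.764 from edgeR). The antisense gene IRF1-AS1 shares 1716 of its 7799 exon bases, and the counting did not use strand. IRF7, which amplifies the production of interferon-alpha, was counted 14 and 0 times in control cells and 12 and 22 times after Erastin. The 95% interval of its log2 fold change ran from −0.95 to 3.48. Alternate scaffolds of GRCh38 hold 87.7% of the 31-base words in its longest transcript. The counting left out reads with several matches, so the count of IRF7 is uncertain.

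Of the RNA sensors and helicases among the members, IFIH1 was called lower and DDX60 did not pass the test. IFIH1 (ENSG00000115267) encodes MDA5, a helicase that recognizes long double-stranded RNA. It had 4.74 and 4.95 CPM in the control libraries and 2.00 and 2.48 CPM in the Erastin libraries, so the groups did not overlap. IFIH1 fell by 1.11 on the log2 scale (SE 0.258, adjusted p = 0.00394 from edgeR), and without Erastin replicate 1 its log2 fold change of −0.97 was below the fold threshold. DDX60, a helicase linked to the same sensors, had a log2 fold change of −0.26 (adjusted p = 0.341 from edgeR).

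The OAS enzymes bind double-stranded RNA and make oligoadenylates, signaling molecules of antiviral defense. OAS3 (ENSG00000111331), the longest of them, had 20.2 and 16.9 CPM in the control libraries and 2.14 and 3.12 CPM in the Erastin libraries. Both Erastin libraries were far below both controls. The log2 fold change was −2.82 (SE 0.203, adjusted p = 4.53e-07 from edgeR), or 7.05-fold lower. OAS1 (ENSG00000089127) was low in control cells, with 24 and 31 counts, and had 4 and 0 counts in Erastin-treated cells. Its log2 fold change of −3.69 (95% interval −5.72 to −1.65, adjusted p = 0.00641 from edgeR) rests on these few counts. It was −7.80 without Erastin replicate 1 and −2.70 without Erastin replicate 2. OASL (ENSG00000135114), a relative without this enzyme activity that assists the sensor RIG-I, had 13.7 and 12.4 CPM in the control libraries and 4.88 and 5.09 CPM in the Erastin libraries. OASL fell by 1.39 on the log2 scale (SE 0.166, adjusted p = 3.09e-05 from edgeR). OAS2, in contrast, was counted 30 and 16 times in control cells and 26 and 34 times after Erastin, and its log2 fold change of 0.38 did not pass the test (adjusted p = 0.584 from edgeR). ISG20, an exonuclease that degrades RNA, had 6 to 12 counts and was not tested.

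The IFIT proteins bind foreign RNA, and their genes differed from one another. IFIT1 (ENSG00000185745), which binds the cap of viral RNA, had 5.49 and 6.05 CPM in the control libraries and 1.74 and 1.53 CPM in the Erastin libraries. IFIT1 fell by 1.82 on the log2 scale (SE 0.257, adjusted p = 1.13e-04 from edgeR), or 3.53-fold. IFIT3 (ENSG00000119917), whose protein binds and stabilizes IFIT1, had 8.27 and 6.34 CPM in the control libraries and 19.01 and 21.9 CPM in the Erastin libraries. IFIT3 rose by a log2 fold change of 1.49 (SE 0.161, adjusted p = 1.40e-05 from edgeR), or 2.80-fold, the largest rise among members past the test. Neither pair of groups overlapped, and both genes moved by more than the spread between replicates. IFIT5 had 29.9 and 32.1 CPM in the control libraries and 48.8 and 49.6 CPM in the Erastin libraries, a rise of 0.67 on the log2 scale (adjusted p = 9.31e-05 from edgeR) that was below the fold threshold. IFIT2 had 3.56 and 2.73 CPM in the control libraries and 3.41 and 3.02 CPM in the Erastin libraries, with overlapping groups. The IFIT1 and IFIT3 promoters both held ISRE matches, at -116 and -103 in IFIT1 and at -156 and -122 in IFIT3.

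**Figure D3:**
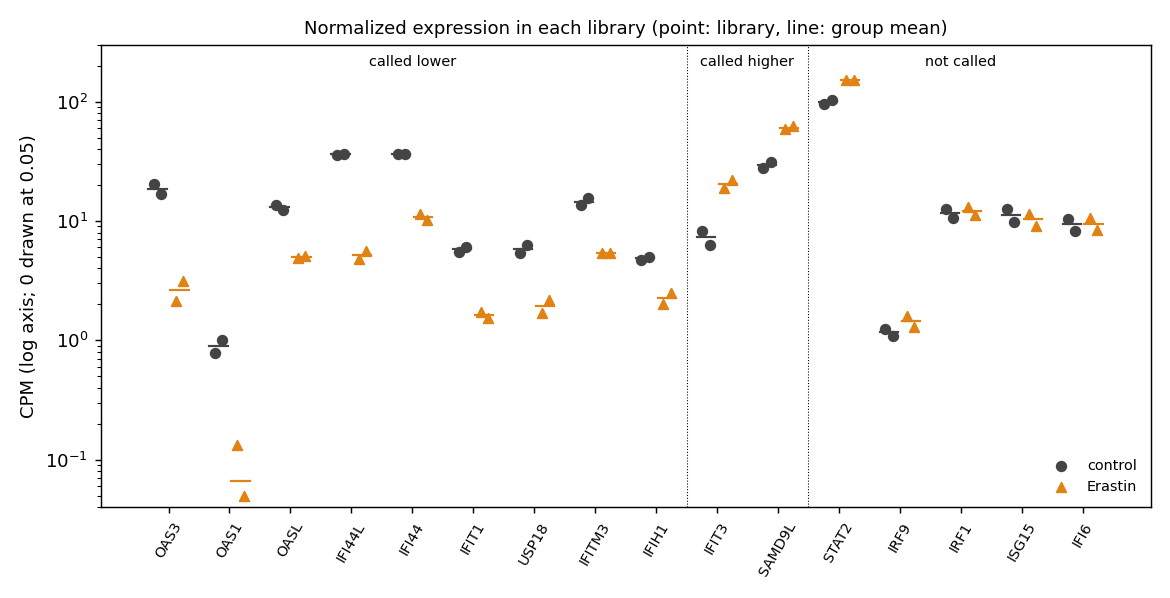
CPM (log axis) of 16 members in each of the 4 libraries, with a line at each group mean and the OAS1 count of 0 drawn near the lower end of the axis. The control and Erastin libraries are separated for the 9 genes called lower and the 2 called higher, and overlap for IRF1, ISG15 and IFI6.

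IFI44L and IFI44, which encode related proteins of the antiviral response, were among the most changed members. IFI44L (ENSG00000137959) had 35.8 and 36.5 CPM in the control libraries and 4.84 and 5.60 CPM in the Erastin libraries. The replicates lay close together, and the log2 fold change was −2.79 (SE 0.130, adjusted p = 1.20e-08 from edgeR), the smallest p-value of the list. IFI44 (ENSG00000137965) had 36.7 and 36.1 CPM in the control libraries and 11.5 and 10.2 CPM in the Erastin libraries, a log2 fold change of −1.74 (SE 0.116, adjusted p = 2.51e-07 from edgeR). Per length, IFI44 had the highest mean level of the members in control cells with 17.9 RPKM, above STAT2 with 16.2 RPKM. In Erastin-treated cells, IFI44 had 5.33 RPKM and STAT2 24.7 RPKM.

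ISG15 is a ubiquitin-like protein that UBA7, UBE2L6 and HERC5 attach to other proteins and that USP18 removes. ISG15 itself had 12.7 and 9.84 CPM in the control libraries and 11.5 and 9.13 CPM in the Erastin libraries. The groups overlapped, with a log2 fold change of −0.13 (95% interval −0.52 to 0.26, adjusted p = 0.593 from edgeR). USP18 (ENSG00000184979), which also blocks signaling from the interferon receptor, had 5.36 and 6.24 CPM in the control libraries and 1.70 and 2.16 CPM in the Erastin libraries. USP18 fell by 1.58 on the log2 scale (SE 0.258, adjusted p = 3.42e-04 from edgeR). Other genes, USP41 among them, hold 24.1% of the 31-base words in its longest transcript, so its count is uncertain. The activating enzyme UBA7 fell by 1.01 and the conjugating enzyme UBE2L6 by 0.49 on the log2 scale (adjusted p = 2.45e-05 and 4.69e-04 from edgeR), and the log2 fold change of UBA7 lay between −1.09 and −0.94 with a library left out. Both were named after their values were seen. HERC5 and its relative HERC6 had log2 fold changes of −0.26 and 0.31 and did not pass the test. HERC5 had 14.7 and 10.3 CPM in the Erastin libraries, and without Erastin replicate 1 its log2 fold change was −0.54 (adjusted p = 0.0349 from edgeR).

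Members of the membrane-associated group were lower or did not pass the test. IFITM3 (ENSG00000142089), which hinders the fusion of viruses with endosomes, had 13.5 and 15.5 CPM in the control libraries and 5.38 and 5.41 CPM in the Erastin libraries. IFITM3 fell by 1.43 on the log2 scale (SE 0.162, adjusted p = 1.94e-05 from edgeR). IFITM2 had 3.20 and 2.57 CPM in the control libraries and 1.97 and 1.69 CPM in the Erastin libraries, and did not pass the test (log2 fold change −0.66, adjusted p = 0.0995 from edgeR). The IFITM genes are paralogs that share part of their sequence. Overlapping genes covered 22.7% of the exon bases of IFITM2 and 21.3% of those of IFITM3, and reads on overlapping genes were not counted. Other genes hold 38.9% of the 31-base words of IFITM3 and 17.0% of those of IFITM2, so their counts are uncertain. IFI6, a small membrane protein with antiviral and anti-apoptotic roles, had 10.4 and 8.30 CPM in the control libraries and 10.6 and 8.46 CPM in the Erastin libraries. The 2 groups overlapped almost entirely, and the log2 fold change was 0.02 (95% interval −0.38 to 0.42, adjusted p = 0.936 from edgeR). LINC02574 and other genes hold 21.6% of the 31-base words of IFI6. The promoter of IFI6 held 3 ISRE matches, as did those of IFIH1, IFIT5 and HERC5. The matches at -159 and -153 in IFIH1 overlapped, as did those at -125 and -119 in HERC5. IFITM1 (0 to 3 counts), IFI27 (0 to 2 counts) and BST2 (2 to 17 counts) were not tested. Alternate scaffolds hold 97.7% of the words of IFI27.

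SAMD9L (ENSG00000177409), a growth-restraining protein that limits translation and viral replication, was the other gene called higher. It had 27.8 and 31.2 CPM in the control libraries and 58.6 and 62.4 CPM in the Erastin libraries. SAMD9L rose by a log2 fold change of 1.04 (SE 0.0939, adjusted p = 3.13e-06 from edgeR), close to the fold threshold. It fell below that threshold without control replicate 1 (0.95) or without Erastin replicate 2 (0.99). Its neighbor and relative SAMD9 had 29.05 and 31.9 CPM in the control libraries and 31.97 and 35.8 CPM in the Erastin libraries, with a log2 fold change of 0.15 (95% interval −0.08 to 0.39). No ISRE match was found in the SAMD9L promoter window, and that of SAMD9 held 1 at -136.

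MX2, a GTPase that restricts nuclear entry of viruses, was counted 62 and 47 times in control cells and 103 and 105 times after Erastin. MX2 rose by 0.94 on the log2 scale (adjusted p = 0.0220 from edgeR), but the adjusted p was 0.0747 from DESeq2, 0.100 without control replicate 2 and 0.0657 without Erastin replicate 1. MX1, the cytosolic relative, was counted 24 and 11 times in control cells and 30 and 20 times after Erastin and did not pass the test. PARP9 and DTX3L encode a complex that modifies histones and proteins of the antiviral response. PARP9 had 29.3 and 31.3 CPM in the control libraries and 17.9 and 20.9 CPM in the Erastin libraries, a fall of 0.64 on the log2 scale (adjusted p = 7.72e-04 from edgeR). DTX3L, at 45.0 and 49.6 CPM and then 42.1 and 41.5 CPM, had a log2 fold change of −0.18 (95% interval −0.37 to 0.02). IFI35, a regulator of innate signaling, had a log2 fold change of 0.18 (95% interval −0.11 to 0.47). RSAD2, which encodes the antiviral enzyme viperin, had 0 counts in 3 libraries and 2 in the other. EPSTI1 had 4 to 9 counts. XAF1, an antagonist of an apoptosis inhibitor, had 0 counts in all 4 libraries. For independent, uniquely matched reads, this allows up to 3 counts per library, but reads of a pair were counted separately, so the limit is higher. Another gene overlaps 38.3% of the exon bases of XAF1.

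Many members lie beside each other in the genome. With genes less than 200 kb apart placed together, 20 of the 37 fell into 8 loci (coordinates of GRCh38 as in the deposited table). IFI44L (chr1:78619922-78646145) and IFI44 (chr1:78649796-78664078) both fell. On chromosome 10, the order along the plus strand was IFIT2, IFIT3, IFIT1 and IFIT5, with log2 fold changes of 0.03, 1.49, −1.82 and 0.67. IFIT3 (chr10:89327894-89340971), which rose, and IFIT1 (chr10:89392546-89406486), which fell, were 51574 bases apart with no other member between them. On chromosome 12, OAS1 and OAS3 fell, whereas OAS2 (chr12:112978395-113011723), 5145 bases beyond OAS3 (chr12:112938352-112973249), did not pass the test. On chromosome 7, SAMD9L (chr7:93130055-93148369) rose and SAMD9 (chr7:93099513-93118023) did not pass the test. PARP9 (chr3:122527924-122564577) fell, and DTX3L (chr3:122564238-122575203), with the shared ISRE match, did not pass the test. The differences between neighbors were not tested.

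**Figure D4:**
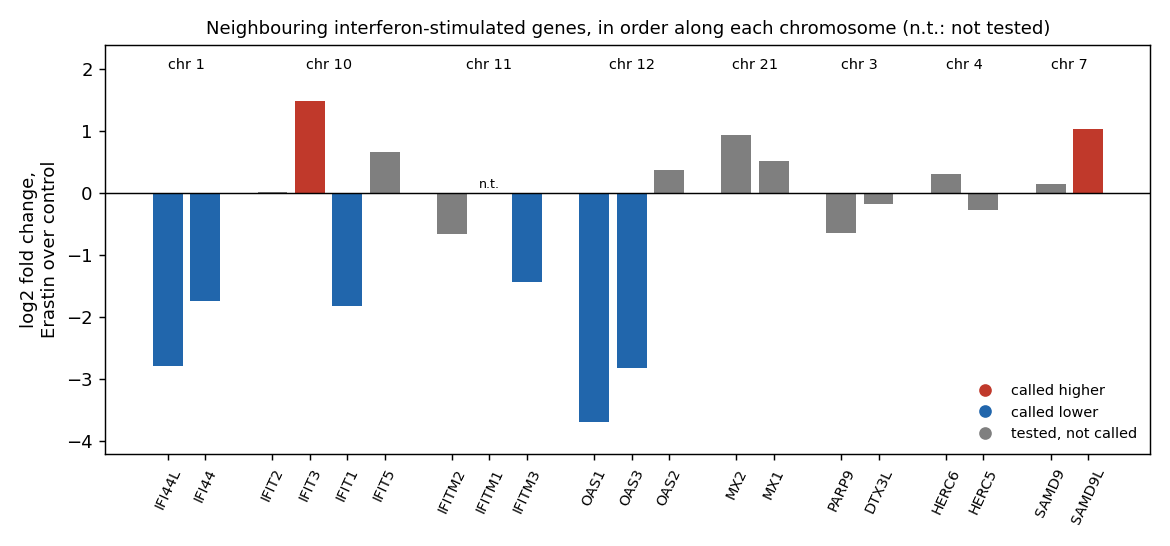
Log2 fold change (Erastin over control) of the 20 members that lie in 8 loci, in order along each chromosome. IFI44L and IFI44 are both lower, whereas the chromosome 10 locus holds a gene called higher (IFIT3, 1.49) and a gene called lower (IFIT1, −1.82).

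ISRE matches were found in promoters of genes of every class. Among the members with a promoter entry, 6 of the 7 called lower held a match, as did 1 of the 2 called higher. Of the 14 that were tested and not called, 8 held a match, and of the 7 not tested, 6 did. OAS1 was the gene called lower without a match in its window. The gamma-activated site, written as TTCNNNGAA, which reads the same on both strands, was found in 9 of the 30 promoters and in 7.66% of all promoters. A match describes these letters in these windows only, and binding was not measured here.

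The rest of the interferon pathway was described with a list of 111 other genes, of which 72 were tested. Of these, 11 (15.3%) were called lower, where 9.34% of all tested genes were, and 2 (2.78%) higher, where 6.24% were. None of the 21 ligand genes, among them IFNB1, the interferon-alpha genes, IFNG and the interferon-lambda genes, had a count in any library. For independent, uniquely matched reads, this allows up to 3 counts of each per library. Each read of a pair was counted on its own, so the reads were not independent and the limit here is higher. The counting left out reads with several matches, and shared sequence was not measured for the ligand genes, so their counts of 0 are uncertain. Of the 11 receptor, kinase and STAT genes, 10 were tested. IFNGR2 was the one called lower (10%, where 9.34% of all tested genes were). None was called higher, where 6.24% of all tested genes were. IFNGR2, a chain of the interferon-gamma receptor, was counted 92 and 75 times in control cells and 24 and 40 times after Erastin (log2 fold change −1.38, adjusted p = 0.00886 from edgeR). IFNAR1 and IFNAR2 form the receptor of interferon-alpha and interferon-beta. IFNAR1 averaged 105 ± 3.82 CPM (SD, n = 2) without Erastin and 146 ± 7.51 CPM (SD, n = 2) with it, and rose with a log2 change of 0.47 (adjusted p = 1.95e-04 from edgeR). IFNAR2 averaged 13.9 ± 0.409 CPM (SD, n = 2) without Erastin and 9.002 ± 0.355 CPM (SD, n = 2) with it, and fell with a log2 change of −0.63 (adjusted p = 0.00357 from edgeR).

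**Figure D5:**
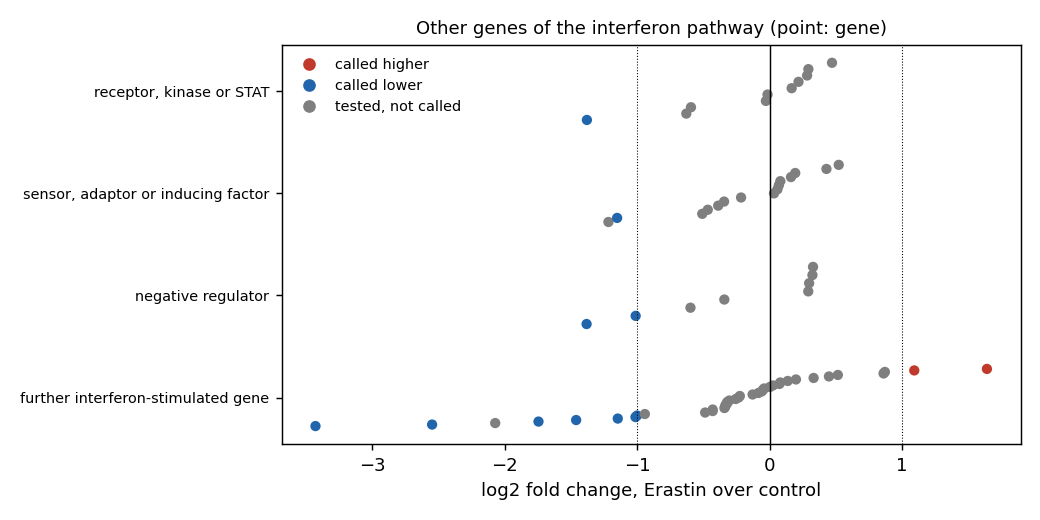
Log2 fold change (Erastin over control) of the 72 tested genes of the pathway list by group, each point a gene, with dotted lines at a log2 fold change of 1 in size. Most of the 11 genes called lower, with GBP5 and GBP2 at the far left, belong to the further interferon-stimulated genes, and TRIM22 is at the far right.

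Among the 15 tested sensors, adaptors and inducing factors, DHX58 was called lower (6.67%, where 9.34% of all tested genes were). None was called higher, where 6.24% of all tested genes were. DHX58 encodes LGP2, a relative of MDA5, and had 4.54 and 4.98 CPM in the control libraries and 2.64 and 1.65 CPM in the Erastin libraries (log2 fold change −1.15, adjusted p = 0.00622 from edgeR). With a library left out, its log2 fold change lay between −1.53 and −0.85. Without the fold threshold, 4 genes of this group (26.7%) were lower and 2 (13.3%) higher, where 23.7% and 23.2% of all tested genes were. Of the 8 tested negative regulators, SOCS1 and SOCS3, inhibitors of JAK kinases, were called lower (25%, where 9.34% of all tested genes were). SOCS1 averaged 5.87 ± 0.983 CPM (SD, n = 2) without Erastin and 2.25 ± 0.263 CPM (SD, n = 2) with it, and fell with a log2 change of −1.38 (adjusted p = 7.84e-04 from edgeR). SOCS3 averaged 85.9 ± 3.67 CPM (SD, n = 2) without Erastin and 42.6 ± 0.497 CPM (SD, n = 2) with it, and fell with a log2 change of −1.01 (adjusted p = 7.57e-07 from edgeR), which lay between −1.06 and −0.97 with a library left out.

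Of the 39 further interferon-stimulated genes tested, 7 (17.9%) were called lower and 2 (5.13%) higher, where 9.34% and 6.24% of all tested genes were, and the median on the log2 scale was −0.23. The guanylate-binding proteins, GTPases that attack intracellular pathogens, gave 4 of the 7. GBP2 had 43.9 and 42.5 CPM in the control libraries and 6.55 and 8.20 CPM in the Erastin libraries, a log2 fold change of −2.55 (SE 0.131, adjusted p = 2.84e-08 from edgeR). GBP1 averaged 9.51 ± 0.00764 CPM (SD, n = 2) without Erastin and 2.84 ± 0.145 CPM (SD, n = 2) with it, and fell by 1.74 on the log2 scale (adjusted p = 1.97e-05 from edgeR). GBP5 was counted only 13 and 11 times in control cells and 0 and 2 times after Erastin. It was called lower by edgeR (adjusted p = 0.0290) but had an adjusted p of 0.103 from DESeq2. The fourth, GBP3, lay at the fold threshold (2.001-fold lower, adjusted p = 0.0424 from edgeR) and had an adjusted p of 0.155 from DESeq2 and 0.0503 from edgeR with the replicate block. TRIM22, a ubiquitin ligase that restricts viruses, had 63.0 and 68.2 CPM in the control libraries and 205 and 204 CPM in the Erastin libraries. TRIM22 rose by a log2 fold change of 1.64 (SE 0.0715, adjusted p = 6.77e-09 from edgeR), and SLFN5, the other gene called higher and named after its value was seen, by 1.09.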

How the data were processed

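Total RNA of control and Erastin-treated (10 μM, 72 h) U87MG cells was sequenced by the authors, with 2 libraries per group. The authors deposited raw counts of reads per gene without normalization. The submitters' processing notes name HISAT2 2.1.0 and hg38 for alignment. The methods name htseq-count, whereas per the file headers the counts were made by featureCounts 2.0.3 with the Ensembl release 90 annotation of GRCh38. Counting was unstranded, reads matching several places or genes were left out, and by the command used each read of a pair was counted on its own.

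Symbols were joined by Ensembl identifier for 57532 of 58302 genes. Counts were tested by edgeR 4.0.16 in R 4.3.3 (filterByExpr at a minimum count of 10, TMM with factors from 0.971 to 1.02, quasi-likelihood test, two-sided, Benjamini-Hochberg adjustment over 16751 genes). Each standard error was the log2 fold change divided by the square root of F. RPKM used the exon length of the deposited table. The biological coefficient of variation was 10.3%. In simulated counts for 16751 genes in this comparison, edgeR recovered 194 of 200 changed genes and called 1 unchanged gene. DESeq2 recovered 181 and called 0 unchanged genes. All planted changes were well past the fold threshold, every gene had the same dispersion, and fewer genes changed than in these data. The simulation therefore does not show how often changes near the fold threshold are recovered or wrongly called. The totals limit precision to counting error, and PCR reads without molecular identifiers are not independent molecules.

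The members and gene lists were chosen with earlier results of these data known. The text gives library values for called members, the factors STAT2, IRF9, IRF1 and IRF7, IFI6, ISG15 and the highest members per length, and up to 4 called genes per pathway group. Other names were chosen after their values were seen. Shared sequence was measured as 31-base words of the longest GENCODE release 44 transcript found in other genes or on 261 alternate scaffolds. Whether the authors aligned to these scaffolds is not given in the sources used here. Alternatives were DESeq2 1.42.0, RLE factors, library totals, other count filters, glmTreat, a replicate block, counts divided by 2, and each library left out. Some genes of the lists are not reported here, and ChIP-seq and HiChIP data were not analysed here.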

Additional observations from a re-analysis of the deposited data

How the results depend on the processing

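The counts of members called lower (9) and higher (2) were the same with DESeq2, RLE factors, library totals, no count filter, counts divided by 2 and a replicate block. With at least 10 counts in every library, 8 were called lower, since OAS1 was no longer tested. The pathway genes called lower, 11 in the main fit, were less stable. They numbered 9 with DESeq2, 10 with RLE factors, 8 with library totals and 9 with counts divided by 2. With no count filter they numbered 13, and with at least 10 counts in every library 10. The pathway genes called higher stayed at 2 in these fits. When glmTreat tested the fold change against the threshold itself, 5 members were called lower and 1 higher. The members no longer called were OAS1, OASL, USP18, IFIH1 and SAMD9L (adjusted p = 0.0595, 0.0646, 0.0732, 0.886 and 0.920 from glmTreat). Of the pathway genes, 3 were then lower and 1 higher, and of all genes 748 and 377. With each library left out, between 1 and 3 members were called higher and between 8 and 9 lower, and between 7 and 9 pathway genes were called lower, with 7 without Erastin replicate 2. The 3 called higher without control replicate 1 were IFIT3, IRF7 (log2 fold change 7.10, against counts of 0 in the remaining control) and MX2 (1.16), whereas SAMD9L was below the fold threshold. Only IFIT3 was called without Erastin replicate 2. Members near 0 changed sign with a library left out, with log2 fold changes between -0.0711 and 0.20 for IRF1, −0.16 and 0.23 for IFIT2, -0.0149 and 0.91 for OAS2, −0.15 and 0.19 for IFI6 and -0.31 and 0.0632 for ISG15. The cause was not tested. Replicate numbers are shared by both groups in the labels without a stated pairing. Same-numbered libraries deviated from their groups with a correlation of 0.0293 over genes, which are no independent points, and were not treated as pairs. With the replicate block, 1039 genes were called higher and 1568 lower, no call of a member changed, and GBP3 was lost from the pathway calls (adjusted p = 0.0503 from edgeR). Depth limits OAS1, OAS2, MX1, IRF7, IRF9 and GBP5, which had few counts in every library.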
